A study of Homo sapiens with 24 samples.

Results

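The data described here are the polysomal RNA of A2058 cells that carried a control siRNA (siCTRL), with and without hydroxyurea (HU). A2058 is a line of human melanoma cells in long use. The polysome methods of the study name it, while the legend of its plot of translation efficiencies names A375, also a melanoma line. A2058 is taken here. Of the 24 RNA-seq libraries of the study, 6 were chosen by their labels, 3 from cultures left untreated (NT) and 3 from cultures given HU at 10 mM for 2 h. All 6 cultures had been transfected with the control siRNA and none with siRNA against LSM14A (siLSM14A). By the polysome methods of the study, cells were incubated with cycloheximide, an inhibitor of translation, from 15 min before collection. Polysomal RNA was the RNA of the heavy end of a 15 to 50% sucrose gradient, from which poly(A) RNA was sequenced. The total RNA of the same 6 cultures (6 libraries) and the polysomal RNA of siLSM14A cells under the same 2 treatments (6 libraries) are set beside it. The comparison asks which mRNAs became more or less abundant in heavy polysomes when DNA replication was stalled.

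HU blocks ribonucleotide reductase, the enzyme that makes deoxynucleotides from ribonucleotides, and so starves replication forks of their substrate. Stalled forks activate the ATR and CHEK1 kinases, and in cells with working p53 its target genes can follow. An mRNA that is translated by many ribosomes sediments deep in a sucrose gradient, so the RNA of the heavy fractions reports what the cell was translating most actively, weighted by how much of each mRNA the cell held.

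The 6 libraries held 28776634 to 44897501 counts. Levels are given as CPM (read counts scaled to library size, with TMM factors), in the order of replicates 1, 2 and 3, and differences as log2 of HU over NT, with the standard error (SE) of the edgeR fit. A CPM is a share of a library, so the amount of polysomal RNA per cell and the number of cells collected cannot be told apart, and neither is measured here. The labels do not say what a replicate number stands for, and p-values measure the spread between these 6 libraries. The melanocyte markers were present, with all 13 listed genes at a mean of at least 1 CPM and PMEL, a protein of the melanosome, as the most abundant. Of the keratinocyte, leukocyte and endothelial markers, 2 of 9, 1 of 9 and 1 of 7 reached that level, and KRT5, DSG3, CD3E, MS4A1, TYROBP and CLDN5 were at 0 in every library.

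No gene differed between HU and NT at an adjusted p-value under 0.05 among the 12315 protein-coding genes tested (0% called, smallest adjusted p = 0.933, edgeR quasi-likelihood F-test with Benjamini-Hochberg adjustment). At an unadjusted p-value under 0.05, 151 genes were higher in HU (1.23% of those tested) and 108 were lower (0.877%). Together these shares were below the share of 0.05 expected at this threshold with no effect. DESeq2 likewise called 0 genes at an adjusted p-value under 0.05, with 273 at an unadjusted p-value under 0.05. All 3 HU libraries lay above all 3 NT libraries for 359 genes (2.92%) and below them for 545 genes (4.43%). Every gene named below therefore stands as a measured difference that did not pass the test over all genes in this fit. CYP51A1 passed in some fits that block on the replicate number, and CCN1 and DEPP1 in the fit without NT replicate 1. For the other named genes, the block fits that leave out a number are not given here.

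When the same-numbered cultures were treated as pairs, more genes separated from the spread. The replicate block gave 627 genes higher (5.09%) and 636 lower (5.16%) at an unadjusted p-value under 0.05, and 1 gene at an adjusted p-value under 0.05 (0.00812%). That gene was CYP51A1. Over all genes tested, 2414 (19.6%) were higher in HU in each of the 3 pairs, 1982 (16.1%) were lower in each and 7919 (64.3%) were mixed.

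CYP51A1, the lanosterol demethylase of cholesterol synthesis, lies at chr7:91714301-91764117 in the hg19 annotation. Its polysomal level was 6.89, 8.19 and 12.8 CPM in NT and 4.57, 2.38 and 5.51 CPM in HU. Each HU library was below each NT library, and the difference was -1.16 ± 0.313 (SE) on the log2 scale, a 2.24-fold lower level (edgeR adjusted p = 0.933). With the replicate block the difference was -1.18 ± 0.213 (SE) with an adjusted p of 0.0477 (edgeR). The block with the GC correction gave -1.04 with an adjusted p of 0.678 (edgeR), and the block without number 2 gave -0.91 with an adjusted p of 1, so this call rested on the block, on the uncorrected counts and on the cultures of number 2. Without number 1 or number 3 the block gave adjusted p-values of 2.68e-06 and 0.0168 for it, in fits of 4 libraries that called 270 and 100 genes. When each of the 6 libraries was left out in turn its difference lay between -1.44 and -0.86, with an unadjusted p-value under 0.05 in each of the 6 fits. In the total RNA of the same cultures CYP51A1 was at 17.2 ± 1.92 CPM in NT and 17.8 ± 2.12 CPM in HU (SD, n = 3), a difference of 0.04 on the log2 scale. The polysomal difference relative to total RNA was -1.21 (edgeR adjusted p = 0.956). Of 21 other genes of sterol synthesis and uptake, listed after CYP51A1 had been seen, 0 had a p-value under 0.05. Their median difference was -0.03, between HMGCS1 at -0.40 and DHCR7 at 0.23.

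**Figure D1:**
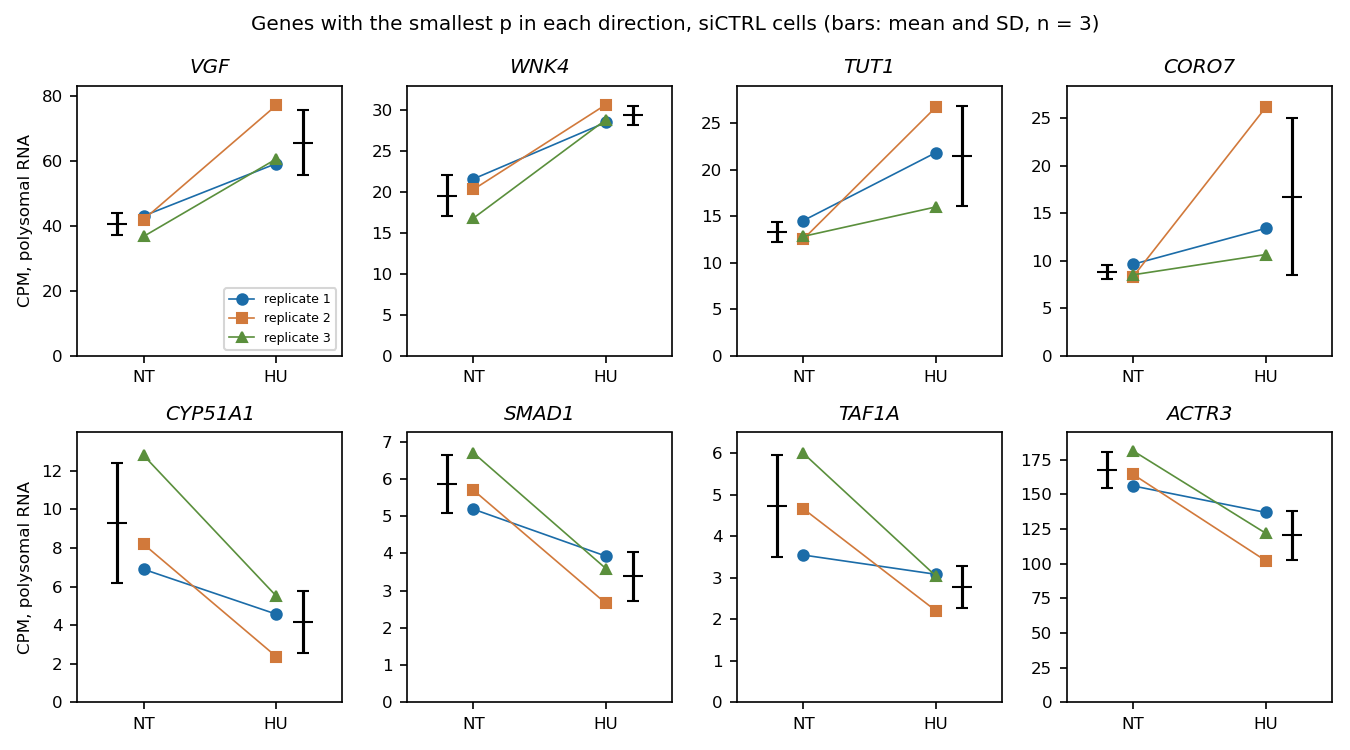
Polysomal level in CPM (y axis, from 0) of VGF, WNK4, TUT1 and CORO7 (higher) and CYP51A1, SMAD1, TAF1A and ACTR3 (lower), the 4 per side with the smallest p-values, in NT and HU libraries of siCTRL cells. Lines join same-numbered replicates, and black bars give the mean and SD of 3 libraries. In all 8 genes, chosen by p-value from these same libraries, HU and NT do not overlap, and the step between them differs in size from pair to pair.

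The 8 genes at the top of the higher side were of mixed function. VGF, the precursor of secreted neuropeptides, had 43.1, 42.0 and 36.8 CPM in NT and 59.2, 77.1 and 60.6 CPM in HU. The HU libraries were all above the NT libraries, by 0.69 ± 0.171 (SE) on the log2 scale or 1.62-fold (edgeR adjusted p = 0.933). With 1 library left out, the difference of VGF was 0.55 to 0.76. WNK4, a kinase that controls ion cotransporters, had 21.6, 20.3 and 16.8 CPM in NT and 28.5, 30.6 and 28.8 CPM in HU. TUT1, a nuclear terminal uridylyltransferase that acts on U6 RNA, had 14.5, 12.5 and 12.8 CPM in NT and 21.8, 26.7 and 15.99 CPM in HU. CORO7, a coronin of the Golgi, had 9.65, 8.35 and 8.54 CPM in NT and 13.4, 26.2 and 10.7 CPM in HU, with HU replicate 2 well above the other two, and a difference of 0.92 on the log2 scale.

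Further genes of this group act in the nucleus. MORC2, an ATPase of chromatin silencing, had 72.9, 57.1 and 65.0 CPM in NT and 86.2, 114 and 84.3 CPM in HU. NFKB2, the precursor of the p52 subunit of NF-kappaB, had 127, 111 and 91.9 CPM in NT and 159, 207 and 132 CPM in HU, a difference of 0.59 ± 0.194 (SE) on the log2 scale or 1.51-fold (edgeR adjusted p = 0.933). ARMC5, an armadillo repeat protein, had 20.3, 20.5 and 16.2 CPM in NT and 28.6, 29.6 and 24.9 CPM in HU. ZNF846, a zinc finger gene, was close to the detection limit, between 0.101 and 0.833 CPM in the 6 libraries. For all 8 of these genes the HU and NT libraries did not overlap, as for 90 of the 151 higher genes and 904 of all 12315. The 8 were chosen by p-value from these same libraries, so their separation follows largely from the choice. In total RNA none had a p-value under 0.05 (log2 differences between -0.08 for WNK4 and 0.28 for ZNF846).

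On the lower side, SMAD1, which carries signals of bone morphogenetic proteins, had 5.19, 5.70 and 6.70 CPM in NT and 3.93, 2.66 and 3.59 CPM in HU, 1.73-fold lower. TAF1A, a subunit of the selectivity factor of RNA polymerase I, had 3.55, 4.66 and 6 CPM in NT and 3.09, 2.21 and 3.05 CPM in HU. ACTR3, an actin-related protein of the complex that branches actin filaments, was the most abundant of those without overlap, at 156, 164 and 181 CPM in NT and 137, 102 and 122 CPM in HU. Its difference was -0.47 ± 0.163 (SE) on the log2 scale, 1.39-fold lower (edgeR adjusted p = 0.933).

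AHNAK, a giant scaffold protein under the membrane, had 304, 189 and 243 CPM in NT and 134, 108 and 210 CPM in HU. Replicate 3 in HU lay above replicate 2 in NT, so the groups overlapped, although each HU culture was below the NT culture of its number. LYZ, lysozyme, had 1.96, 2.34 and 3.24 CPM in NT and 1.04, 1.26 and 1.86 CPM in HU. NEB, nebulin of the muscle thin filament, and IGFBPL1, a relative of the binding proteins of insulin-like growth factors, were below 1 CPM in every library. In total RNA, 0 of these 8 genes had a p-value under 0.05, and their differences lay between -0.23 for AHNAK and 0.43 for IGFBPL1.

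The higher and lower genes differed in base composition. The 151 higher genes had a median exonic GC content of 60.1% and the 108 lower genes one of 41.4%, against 47.8% over all genes tested. When genes were ranked by GC content into 10 equal groups, 123 of the 151 higher genes were in the 3 groups richest in GC, and 98 of the 108 lower genes were in the 5 poorest. VGF (69.8%) had the highest GC content of the 8 named on the higher side and ACTR3 (35.2%) the lowest on the lower side. The first 150 bases of the longest coding exon of each are shown to make this visible, from GRCh37, with G and C in capitals. VGF is at chr7:100807975-100808124, minus strand, in exon 2, and 64.0% of these bases are G or C. ACTR3 is at chr2:114699763-114699912, plus strand, in exon 8, with 34%.
VGF: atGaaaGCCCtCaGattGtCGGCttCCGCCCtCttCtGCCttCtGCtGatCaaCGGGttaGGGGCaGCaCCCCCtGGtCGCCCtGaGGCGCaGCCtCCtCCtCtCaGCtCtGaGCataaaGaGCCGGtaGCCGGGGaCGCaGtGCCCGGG
ACTR3: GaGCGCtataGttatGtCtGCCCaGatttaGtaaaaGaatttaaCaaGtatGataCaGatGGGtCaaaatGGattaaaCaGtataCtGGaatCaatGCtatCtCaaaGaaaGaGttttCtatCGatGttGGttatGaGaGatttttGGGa

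The change ran with GC content over the whole range of genes. Its median was -0.17 in the GC-poorest group and 0.20 in the GC-richest group, and across the 12315 genes, which are not independent replicates, Spearman's rho between change and exonic GC content was 0.603. The same genes in the total RNA of the same cultures gave medians between -0.01 and 0.01 in every group and a rho of -0.011, and polysomal RNA of siLSM14A cells a rho of -0.053. The relation was not shared by the 3 pairs of cultures. It was 0.745 in pair 3 and 0.41 in pair 2, and -0.168 in pair 1.

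**Figure D2:**
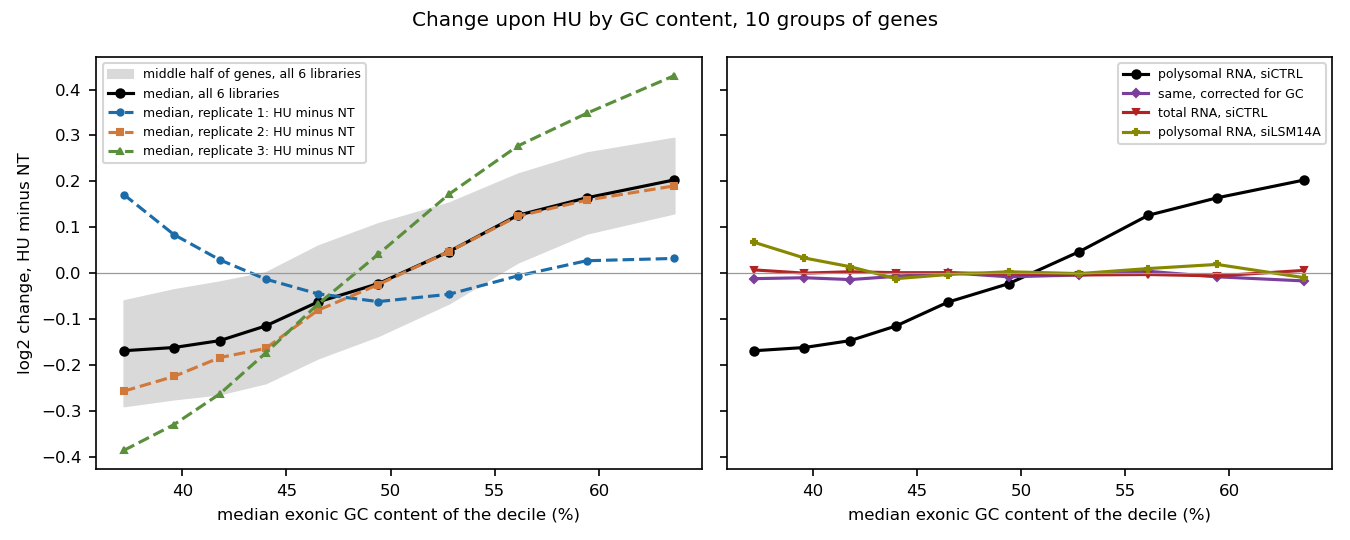
Median log2 change upon HU (y axis) against the median exonic GC content of 10 groups of genes (x axis, %). Left, polysomal RNA of siCTRL cells from all 6 libraries (black, with the range from the lower to the upper quartile of genes in grey) and from each pair of same-numbered libraries (dashed). Right, the same median with and without a correction for GC, with total RNA and with siLSM14A polysomal RNA. The slope is steep in pair 3, absent in total RNA and flat after the correction.

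Replicate 3 of NT, which was also the library with the fewest counts, stood apart from the other libraries in this respect. The GC content averaged over the reads' genes was 51.8%, 51.7% and 50.3% in NT and 51.8%, 52.2% and 51.6% in HU. Without replicate 3 of NT, rho between change and GC content was 0.105, and 225 genes were higher and 36 lower at an unadjusted p-value under 0.05. Of the 259 genes called with all libraries, 74 were among these 261. With the fit corrected for GC, 167 genes were higher and 101 lower (p under 0.05), among them 77 of the 151 and 74 of the 108. After the correction VGF differed by 0.42, MORC2 by 0.57, CYP51A1 by -1.01, SMAD1 by -0.66 and ACTR3 by -0.36, each with an adjusted p of 0.998 (edgeR). Whether the GC trend is part of the response to HU or of the handling of these polysomal libraries was not tested.

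The count of genes also turned on single cultures. Leaving out 1 library at a time gave 928 genes without NT replicate 1, 131 without NT replicate 2, 261 without NT replicate 3, 253 without HU replicate 1, 38 without HU replicate 2 and 894 without HU replicate 3, at an unadjusted p-value under 0.05. The count was thus lowest without HU replicate 2 and highest without NT replicate 1 or HU replicate 3. Within the block, the count was 2288 without number 1, 173 without number 2 and 1254 without number 3. The median SD between replicates was 0.239 in NT and 0.204 in HU on the log2 scale in polysomal RNA, against 0.0851 and 0.0956 in total RNA of the same cultures.

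**Figure D3:**
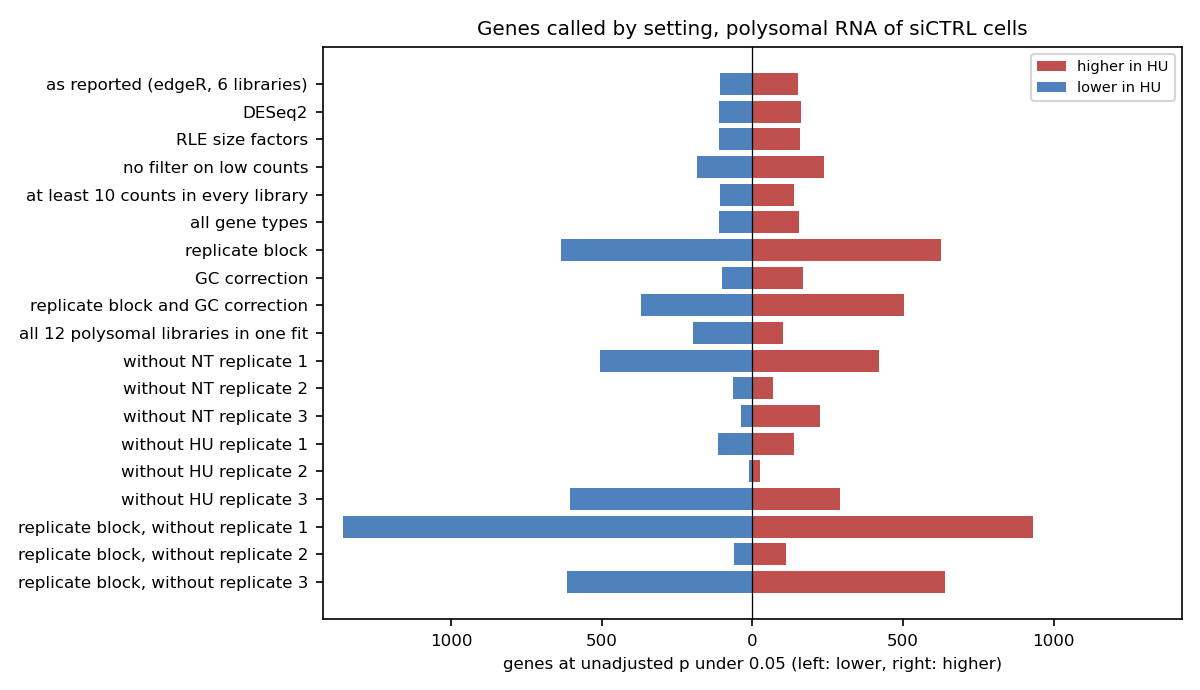
Genes called, at a p-value under 0.05 without adjustment (x axis, left lower in HU and right higher in HU) under each setting (y axis), with edgeR unless another tool is named. The bars run from 38 genes without HU replicate 2 to 2288 in the block without number 1, against 259 as reported.

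The enzymes on which HU acts, and the supply of deoxynucleotides around them, showed no call. RRM1, the large subunit of ribonucleotide reductase, had 301, 229 and 368 CPM in NT and 331, 298 and 257 CPM in HU, a difference of -0.02 ± 0.194 (SE) that turned positive with the block (0.00069), with the GC correction (0.118) and without NT replicate 3 (0.161). RRM2, the small subunit that HU inactivates, had 140, 144 and 125 CPM in NT and 144, 131 and 124 CPM in HU (-0.04 ± 0.151, SE). RRM2B, the p53-induced small subunit, had 8.85, 9.10 and 13.8 CPM in NT and 9.76, 6.88 and 10.6 CPM in HU. The groups overlapped for all 3. Of the 22 genes of deoxynucleotide supply tested, 0 passed an unadjusted p-value under 0.05 and the median difference was 0.02.

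Checkpoint and repair genes were called about as rarely as genes at large (1.23% higher and 0.877% lower). Of 19 genes of the ATR and CHEK1 checkpoint, 0 were called, with a median of -0.13 and 14 of 19 on the lower side. CHEK1, the effector kinase, was at 30.4 ± 3.38 CPM in NT and 25.1 ± 1.85 CPM in HU (SD, n = 3), with every HU library below every NT library. TREX1, a DNA exonuclease, was at 29.4, 30.1 and 21.6 CPM in NT and 31.6, 39.8 and 31.2 CPM in HU, also without overlap. Of the 19 genes, 1 lay above and 2 below without overlap, against 2.92% and 4.43% of all genes. The GC correction took the median of this list to -0.02.

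Among 12 tested genes of non-homologous end joining, 1 was called, on the lower side. PRKDC, the catalytic subunit of the DNA-dependent protein kinase, had 1149, 924 and 1303 CPM in NT and 686, 661 and 1019 CPM in HU, a difference of -0.51 ± 0.217 (SE) or 1.43-fold (edgeR adjusted p = 0.933, edgeR). Replicate 3 in HU lay above replicate 2 in NT, so the groups overlapped, but each HU culture was below the NT culture of its number. In total RNA the difference of PRKDC was -0.09. LIG4, the ligase of the pathway, had 4.48, 7.71 and 16.8 CPM in NT and 9.26, 7.52 and 11.4 CPM in HU. Its difference was -0.04 with all libraries and 0.63 without NT replicate 3, where its unadjusted p-value passed under 0.05. The median of the 12 genes was 0.06.

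Homologous recombination and the Fanconi anaemia pathway had 31 genes tested and 0 called (median -0.04), and FANCB, an X-linked member of the Fanconi core complex, had the smallest p, with 2.78, 2.17 and 2.95 CPM in NT and 1.96, 1.45 and 2.15 CPM in HU. RTEL1, a helicase of telomeres and replication forks, was near the detection limit at 0.455, 0.681 and 0.572 CPM in NT and 0.533, 0.335 and 0.449 CPM in HU. In replication licensing and fork genes, 0 of 35 were called, and LIG1, which joins Okazaki fragments, came nearest with 164, 104 and 111 CPM in NT and 170, 205 and 140 CPM in HU (0.44 ± 0.205, SE). With the block, 6 of the 35 were higher and 0 lower, against 5.09% and 5.16% of all genes.

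Cell cycle genes gave 0 calls of 17 for the G1/S cyclins and E2F genes (median -0.10) and 0 of 32 for mitotic genes (median -0.01). Calls in this paragraph are to be read against 1.23% higher and 0.877% lower over all genes. The mitotic genes differed in sign between the pairs, with medians of 0.12, 0.12 and -0.35. RBL2, a relative of the retinoblastoma protein that represses E2F genes, had 17.5, 19.3 and 24.03 CPM in NT and 14.7, 9.14 and 20.2 CPM in HU. UBE2C, a ubiquitin-conjugating enzyme of mitosis, had 103, 94.7 and 76.2 CPM in NT and 112, 135 and 96.4 CPM in HU. Of the 15 replication-dependent histone genes that passed the filter out of 35, 0 were called, and their summed level was 119, 114 and 104 CPM in NT and 131, 130 and 103 CPM in HU. H1-2, a linker histone, had the smallest p of them, at 21.66, 21.4 and 18.3 CPM in NT and 24.9, 28.6 and 21.67 CPM in HU. These mRNAs largely lack a poly(A) tail, so the poly(A) selection keeps only a part of them. SLBP, which binds their stem-loop, had 59.2, 60.4 and 58.0 CPM in NT and 59.3, 55.5 and 58.6 CPM in HU, with overlap. UPF1, the helicase of nonsense-mediated decay that also acts in histone mRNA decay, was the 1 call of 12 genes of histone mRNA processing, with 367, 289 and 282 CPM in NT and 391, 497 and 367 CPM in HU (0.42 ± 0.183, SE). Its HU libraries were above its NT libraries, the nearest being 367.1 CPM in NT and 367.3 CPM in HU. After the GC correction UPF1 differed by 0.24 with an unadjusted p of 0.095 (edgeR) and was not called.

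Of 23 p53 target genes, 0 were called (median 0.02). CDKN1A, the p21 inhibitor of cyclin-dependent kinases, had 41.1, 46.2 and 28.8 CPM in NT and 47.0, 48.6 and 42.4 CPM in HU, and MDM2, the ubiquitin ligase of p53, had 15.7, 15.8 and 23.02 CPM in NT and 19.2, 20.8 and 16.7 CPM in HU. Both overlapped. BAX, a pore-forming protein of apoptosis (0.32), PHLDA3, an inhibitor of AKT (0.22), and GADD45A, a growth arrest protein (0.29), were above NT in every HU library and were not called. SESN1, a stress-induced regulator of growth signalling, was lower in every HU library at 7.12, 9.18 and 8.76 CPM in NT and 7.01, 5.14 and 6.54 CPM in HU, and was not called. Thus 3 of the 23 lay above and 1 below without overlap, against 2.92% and 4.43% of all genes.

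The immediate early genes had the largest median of the lists with 10 or more genes tested. Over 25 genes it was 0.31, against -0.01 for all genes, with 17 positive, and 1 call against a background of 1.23% of genes called higher. EGR1, a zinc finger factor induced by growth signals, was that call, at 2.52, 3.08 and 2.16 CPM in NT and 3.65, 3.52 and 4.42 CPM in HU (0.57 ± 0.239, SE). ZFP36, which binds AU-rich elements, had 4.64, 5.52 and 3.05 CPM in NT and 6.37, 6.85 and 5.71 CPM in HU, and IER2 and JUNB were likewise above NT in every HU library. With EGR1, 4 of the 25 lay above NT without overlap, against 2.92% of all genes. In the block, 11 of the 25 were higher at an unadjusted p-value under 0.05 and 0 lower, against 5.09% and 5.16% of all genes. The median was unevenly spread over the pairs, at 0.04, 0.07 and 0.57, it was 0.12 after the GC correction, below the ribosomal protein genes (0.22) and the heat shock list (0.15), and the list is rich in GC (median 55.0%).

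**Figure D4:**
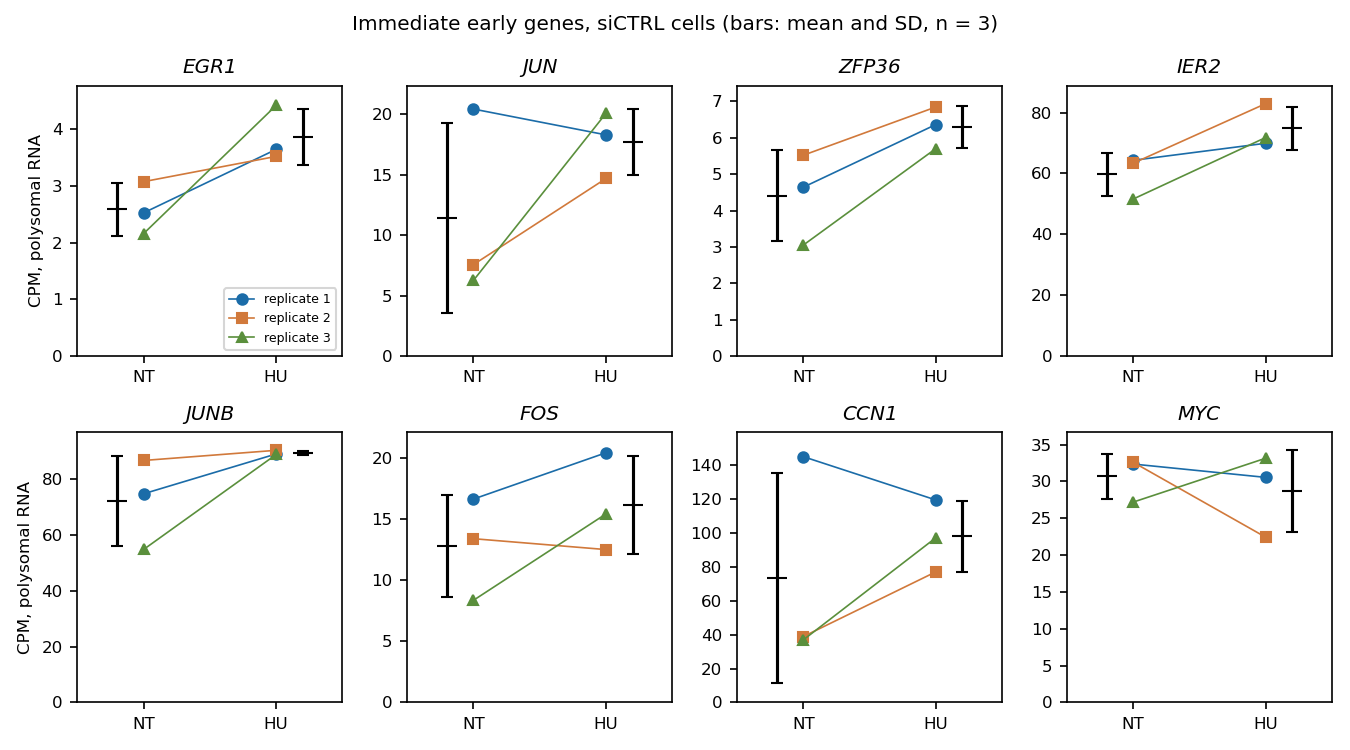
Polysomal level in CPM (y axis, from 0) of 7 immediate early genes and MYC in NT and HU libraries of siCTRL cells, with same-numbered replicates joined and the mean and SD of 3 libraries in black. EGR1, ZFP36, IER2 and JUNB do not overlap, while JUN and CCN1 are high in NT replicate 1.

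For several of these genes NT replicate 1 was the exception. JUN had 20.5, 7.56 and 6.25 CPM in NT and 18.3, 14.7 and 20.1 CPM in HU. CCN1, a secreted matrix protein, had 145, 38.9 and 36.9 CPM in NT and 120, 77.1 and 97.3 CPM in HU, and its neighbour in function CCN2 had 65.2, 21.1 and 23.97 CPM in NT and 58.7, 36.0 and 46.5 CPM in HU. DEPP1, named after its values were seen, had 7.67, 1.84 and 1.84 CPM in NT and 7.24, 4.70 and 6.67 CPM in HU. Without NT replicate 1, CCN1 (1.37 ± 0.222, SE) and DEPP1 (1.75 ± 0.295, SE) had an adjusted p of 0.0336 (edgeR), the 2 genes called in that fit. FOS had 16.6, 13.4 and 8.35 CPM in NT and 20.4, 12.5 and 15.4 CPM in HU, and MYC 32.4, 32.6 and 27.2 CPM in NT and 30.5, 22.4 and 33.1 CPM in HU.

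In total RNA of the same cultures EGR1 was 0.66 higher on the log2 scale, FOS 0.46 higher and JUN 0.82 higher, each with an unadjusted p-value under 0.05 and an adjusted p of 1 (edgeR), and the polysomal difference relative to total RNA was -0.11, -0.14 and -0.17. The median over the list in total RNA was 0.11.

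**Figure D5:**
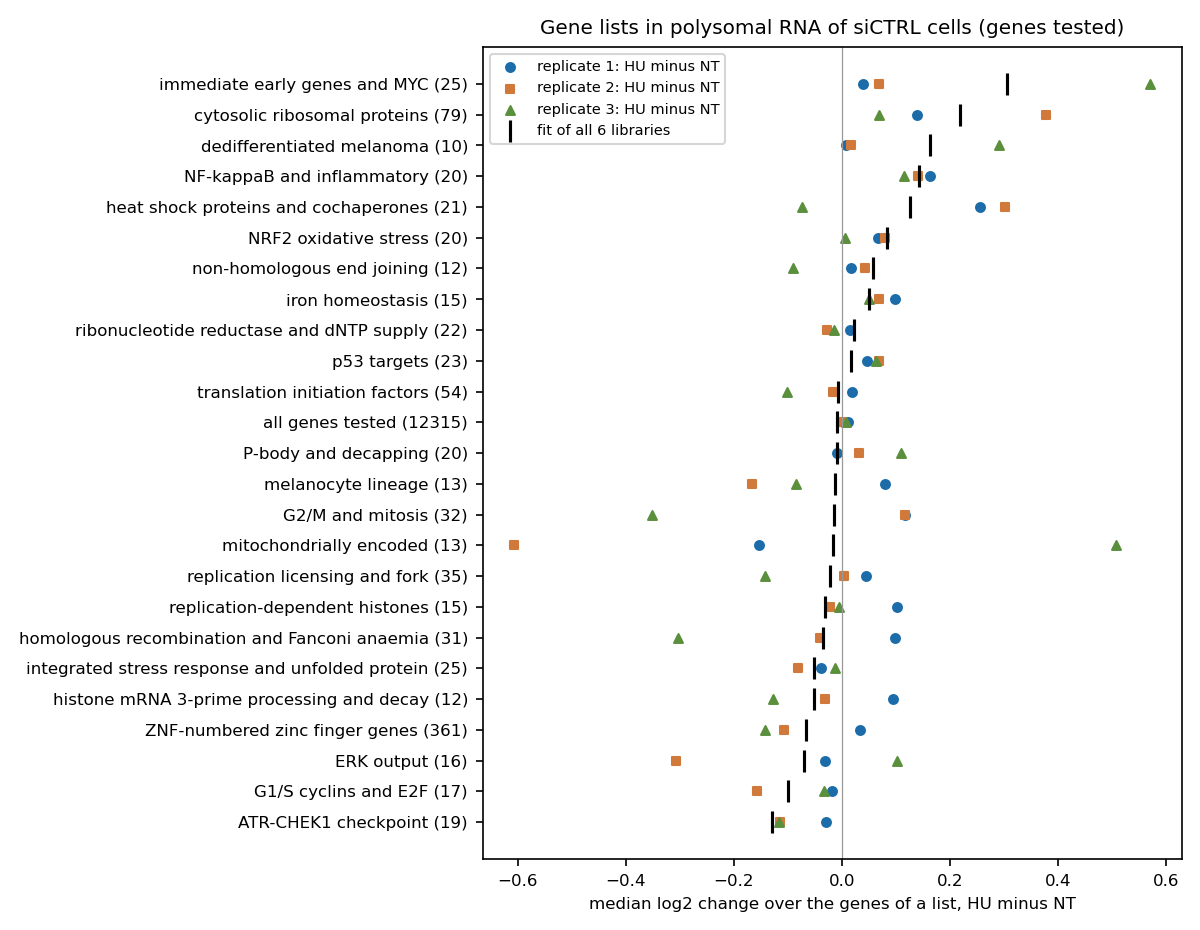
Median log2 change upon HU in polysomal RNA (x axis) of each gene list with at least 10 genes tested (y axis, number of genes in parentheses). The black mark is the fit of all 6 libraries and the coloured points are the 3 pairs of same-numbered libraries. Immediate early genes (0.31) and ribosomal protein genes (0.22) have the highest medians, and the mitochondrially encoded genes the widest spread between pairs.

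The mRNAs of cytosolic ribosomal proteins were nearly all on the higher side in HU, by small amounts. They carry a pyrimidine tract at their start and are translated in step with growth signals. Of 79 tested, 77 had a positive difference, against 5969 of the 12315 genes, and 0 passed an unadjusted p-value under 0.05. With the block, 11 were higher at that threshold and 0 lower, against 5.09% and 5.16% of all genes. Their median was 0.22, positive in each pair (0.14, 0.38 and 0.07), 0.22 after the GC correction and 0.08 without HU replicate 2. Their summed level was 52890, 55970 and 46590 CPM in NT and 57770, 69780 and 50440 CPM in HU, so that the groups overlapped and HU replicate 2 stood highest. In total RNA the median was 0.02 and in polysomal RNA of siLSM14A cells -0.23. In the latter, these genes held 7.18% of counts in NT replicate 2, against 5.06 to 5.54% in the other siLSM14A polysomal libraries. The median without that library was not tested. RPL26 had the smallest p of the list, at 11.2, 7.59 and 10 CPM in NT and 13.5, 12.3 and 11.2 CPM in HU. Ribosomal protein genes have many processed copies, and how reads were divided among them makes single members uncertain.

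Translation initiation factors showed no such movement, with 0 of 54 called and a median of -0.01. EIF4G1, the scaffold of the cap-binding complex, had 1588, 980 and 1040 CPM in NT and 1447, 1726 and 1506 CPM in HU. The 13 mitochondrially encoded mRNAs, which are translated inside mitochondria and not on the ribosomes of the cytosol, had 0 calls and a summed level of 7049, 12860 and 12980 CPM in NT and 6471, 8075 and 19070 CPM in HU. The medians of the 3 pairs were -0.15, -0.61 and 0.51. MT-ND3, a subunit of respiratory complex I, ran from 38.0 to 108 CPM in NT and from 38.2 to 82.6 CPM in HU. Of 20 genes of P-bodies and decapping, 0 were called, and EDC4, a scaffold of decapping, came nearest at 164, 135 and 116 CPM in NT and 189, 160 and 154 CPM in HU. LSM14A itself had 30.3, 39.2 and 47.5 CPM in NT and 29.8, 25.6 and 39.8 CPM in HU (-0.30 ± 0.214, SE).

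In the stress pathways the calls are to be read against the 1.23% of all genes called higher and the 0.877% called lower, a share at which lists of this size hold a call or none. Of 25 genes of the integrated stress response, 1 was called, PSAT1, an enzyme of serine synthesis, with 309, 265 and 327 CPM in NT and 258, 181 and 244 CPM in HU. ATF4, the transcription factor of that response, had 409, 316 and 299 CPM in NT and 356, 333 and 296 CPM in HU, a difference of -0.05 ± 0.176 (SE). Of 20 NRF2 genes, 1 was called, TXNRD1, the cytosolic thioredoxin reductase, with 320, 333 and 377 CPM in NT and 264, 212 and 285 CPM in HU (-0.44 ± 0.171, SE). Both PSAT1 and TXNRD1 were lower in every HU library than in every NT library, as were 4.43% of all genes. In total RNA the differences of PSAT1 and TXNRD1 were -0.08 and 0.02.

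Heat shock proteins and cochaperones had 0 of 21 called and a median of 0.13, with medians of 0.26, 0.30 and -0.07 in the 3 pairs. BAG3, a cochaperone of HSP70, had 144, 141 and 128 CPM in NT and 167, 174 and 163 CPM in HU, above NT without overlap like 2.92% of all genes. NFKB2 was the 1 call of 20 genes of NF-kappaB and inflammation, whose median was 0.14 and close to equal in the 3 pairs (0.16, 0.14 and 0.11). In total RNA the median of this list was 0.12. Of 16 ERK output genes, 1 was called, EPHA2, a receptor tyrosine kinase, at 127, 107 and 84.0 CPM in NT and 145, 158 and 120 CPM in HU, with overlap. Of 15 iron homeostasis genes 0 were called, and IREB2, an iron-responsive RNA-binding protein, had 22.1, 29.7 and 39.9 CPM in NT and 23.5, 17.8 and 26.7 CPM in HU. Of 361 zinc finger genes with ZNF-numbered symbols, 7 were higher and 3 lower, and the median was -0.07. With the block these became 14 and 18, and the calls became 3 higher and 0 lower in the NF-kappaB list, 1 and 3 in the NRF2 list, 1 and 4 in the integrated stress response, 2 and 1 in ERK output, 2 and 2 among p53 targets, 0 and 3 in the G1/S list and 2 and 0 in histone mRNA processing, against 5.09% and 5.16% of all genes.

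Of the lineage genes, 0 of 13 in melanocyte lineage and 0 of 10 in dedifferentiated melanoma were called. PMEL had 1291, 1141 and 1002 CPM in NT and 1581, 1937 and 1075 CPM in HU, and VIM, the intermediate filament of mesenchymal cells, had 3821, 3028 and 3067 CPM in NT and 4401, 4377 and 3718 CPM in HU. The summed level of the 13 melanocyte genes was 2900 to 3290 CPM in NT and 2980 to 3900 CPM in HU, and that of 11 genes of dedifferentiated melanoma 4880 to 6330 and 5730 to 6090 CPM. Keratinocyte markers summed to 22.9 to 29.9 CPM in NT and 30.4 to 36.1 CPM in HU, mostly KRT10 (23.5, 21.4 and 28.1 CPM in NT, 27.7, 33.4 and 27.3 CPM in HU), and leukocyte markers to 3.33 to 4.81 and 2.6 to 3.51 CPM, mostly LYZ. Of the 3 leukocyte genes tested LYZ was the 1 call, on the lower side, and of the 2 keratinocyte and 3 endothelial genes tested 0 were called. TIE1, an endothelial receptor kinase, was between 0.667 and 1.34 CPM in the 6 libraries. The part of these markers in the differences was not tested. HPRT1, a gene often used as a reference, had 37.8, 38.0 and 39.9 CPM in NT and 40.9, 34.8 and 38.6 CPM in HU.

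Set against total RNA of the same 6 cultures, the polysomal differences were wider, and so was the spread between replicates. The median SD was 0.239 in NT and 0.204 in HU in polysomal RNA, against 0.0851 and 0.0956 in total RNA. In total RNA 0 genes had an adjusted p-value under 0.05 and 180 an unadjusted one (99 higher and 81 lower of 12506 tested), and the median absolute difference was 0.05 on the log2 scale against 0.16 in polysomal RNA. Of the 151 genes higher in polysomal RNA, 5 had a p-value under 0.05 in total RNA, and of the 108 lower genes, 2. Among all 12315 genes tested in polysomal RNA, 171 did. With the replicate block, 15 genes in total RNA had an adjusted p-value under 0.05. The test of the difference between fractions (the change in polysomal RNA beyond that in total RNA) gave 0 genes at an adjusted p-value under 0.05 and 293 at an unadjusted one, 181 higher and 112 lower. This fit held no term for the culture that gave both fractions. With a block for the culture, 303 genes had an unadjusted p-value under 0.05, 215 of them among the 293. Among the genes named above, WNK4 (0.67), MORC2 (0.59), VGF (0.65), IGFBPL1 (-1.49), SMAD1 (-0.80) and ACTR3 (-0.50) were within those 293, as were TUT1, CORO7, ZNF846, NFKB2, ARMC5, LIG1, EPHA2 and UPF1 on the higher side and CYP51A1, TAF1A, NEB, LYZ and TXNRD1 on the lower, each with an adjusted p of 0.956 (edgeR). These genes had been chosen by p-value from the polysomal libraries that enter this test, so their passing largely repeats the choice.

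In siLSM14A cells, where LSM14A was at 1.58 to 2.44 CPM in polysomal RNA against 25.5 to 49.1 CPM in siCTRL cells (12 polysomal libraries scaled together), HU against NT gave 83 genes higher and 24 lower at an unadjusted p-value under 0.05 in polysomal RNA and 0 at an adjusted one. The test of whether the response to HU differed between siCTRL and siLSM14A cells gave 0 genes at an adjusted p-value under 0.05 (smallest adjusted p = 0.954) and 134 at an unadjusted one. CYP51A1 was 0.37 higher in HU in siLSM14A cells, and the responses differed by -1.57. SMAD1 was 0.30 higher, and the responses differed by -1.12. For RTEL1 the difference was 1.5 in siLSM14A cells and -0.37 in siCTRL cells, at levels below 1 CPM in the latter. These 3 differences of responses had an unadjusted p-value under 0.05 and an adjusted p of 0.954 (edgeR). The same held for ACTR3 (-0.52), RBL2 (-0.82), NEB (-2.05), TAF1A (-0.80) and RPL26 (0.63). All of these but RTEL1 had been chosen by p-value from the siCTRL libraries that enter this test. VGF was higher in both, by 0.69 and 0.39, with a difference of responses of 0.27 ± 0.455 (SE) that did not pass the test.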

How the data were processed

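Samples were assigned to groups and replicates from their labels. The authors sequenced stranded poly(A) libraries (paired reads of 100 bases), trimmed them with Trim Galore, aligned them to hg19 with STAR 2.6.1a and counted reads on Gencode genes, and the deposited values are raw counts per gene. The sequencing methods state that gradient fractions 13 to 17 were pooled, the polysome methods that the heaviest 4 were. Of 20345 gene IDs, 19086 were protein-coding in Gencode v44 lifted to hg19 and were tested. The 551 genes of other types and 708 unmatched IDs (0.316 to 0.366% of counts) stayed out.

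HU was compared with NT in R 4.3.3 by the quasi-likelihood F-test of edgeR 4.0.16 with TMM scaling, after filterByExpr (minimum count 10, minimum total 15), with Benjamini-Hochberg adjustment. The SE is the size of the fitted difference over the square root of F. Log2 values within pairs used log2 CPM with a prior count of 2. The change beyond total RNA was the interaction of fraction and treatment in the 12 siCTRL libraries, with a block for the culture as an alternative. The difference between siRNAs was the interaction in the 12 polysomal libraries. Alternatives were DESeq2 1.42.0, RLE factors, no filter, at least 10 counts in every library, all gene types, the replicate number as a block, a loess correction for exonic GC content (span 0.3), both together, all 12 polysomal libraries in 1 fit, and each library left out. The tests were tried on simulated data. Figures were drawn with matplotlib 3.10.9.

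The labels give both groups the same replicate numbers. The deviations from the group means correlated within numbers 1, 2 and 3 by 0.294, 0.238 and 0.522, each over 0.1, so the numbers were taken to pair the cultures, although NT replicate 1 also correlated with HU replicate 2 (0.308). The deviations also ran with GC content, with a rho of 0.565, 0.418 and -0.721 in NT and -0.164, 0.464 and -0.303 in HU. Libraries with a like GC trend correlate with or without pairing, so these correlations do not establish it. No replicates agreed within sampling noise (chi-square of 37.4 to 122 per gene).

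Named genes were the 8 with the smallest p in each direction, those at an adjusted p-value under 0.05 with or without the block, the gene with the smallest p of each list (1 of these is not reported here), and 14 given by name, among them RRM1, SLBP, ATF4 and HPRT1. CHEK1, BAX, PHLDA3, GADD45A, ZFP36, IER2, JUNB, CCN1, CCN2, DEPP1 and the sterol genes were added after their values were seen. The comparison and the lists were chosen with earlier results of these data known.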

Additional observations from a re-analysis of the deposited data

How the results depend on the processing

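The 0 genes at an adjusted p-value under 0.05 in polysomal RNA became 1 with the replicate block and 2 without NT replicate 1, so that the range on leaving out 1 library was 0 to 2. In the block it became 270 without number 1, 0 without number 2 and 100 without number 3. The 259 genes at an unadjusted p-value under 0.05 became 422 without a filter (more genes tested), 1263 with the replicate block, 873 with the block and the GC correction, 38 to 928 when a library was left out and 173 (number 2), 1254 (number 3) and 2288 (number 1) when a number was left out of the block. DESeq2 gave 273, RLE factors 267, at least 10 counts in every library 245, all gene types 267, the GC correction 268 and the 12 polysomal libraries together 300, the last with 103 higher and 197 lower against 151 and 108. In total RNA, 180 became 501 with the replicate block, 96 with DESeq2 and 86 to 390 with a library left out. For the change beyond total RNA, 293 became 500 with the replicate block, 303 with a block for the culture and 70 to 761 with a culture left out. For the difference between siRNAs, 134 became 487 with the replicate block and 37 to 829 with a library left out. Where no value is given for it, the cause was not tested. Of the 259 genes, 258 were also called with the replicate block, 151 with the GC correction and 32 without HU replicate 2. Of 807 values of named genes under these alternatives, 783 kept their direction and their side of the adjusted threshold. No named gene passed that threshold in the fit of all 6 libraries, so keeping its side says little about calls at an unadjusted p-value. CYP51A1 passed the adjusted threshold with the block (-1.18) and 23 values turned in sign, all of differences that had not been called. RRM1 turned to 0.00069 with the block, 0.118 with the GC correction and 0.121 with both, LIG4 to 0.132, 0.169 and 0.267, and HPRT1 to 0.0836 with the GC correction and 0.0824 with both. On leaving out a library, RRM1 ranged from -0.206 to 0.161, LIG4 from -0.381 to 0.632, HPRT1 from -0.0724 to 0.0342, ATF4 from -0.136 to 0.0963, MDM2 from -0.0631 to 0.269, TIE1 from -0.338 to 0.237, MT-ND3 from -0.584 to 0.123, RRM2B from -0.369 to 0.019 and MYC from -0.232 to 0.0455. Of the medians of lists under these alternatives, 57 were counted as moved and 348 as unchanged. The p53 median (0.02) was -0.063 without NT replicate 2 and 0.111 without NT replicate 1. That of the integrated stress response (-0.05) was -0.1 and 0.092 in these fits. The G1/S median (-0.10) was -0.231 without HU replicate 3. RTEL1, ZNF846 and NEB were below 1 CPM in every library compared, and the cause of their low counts was not tested.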
